A study of Homo sapiens with 6 samples.

Results

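The genes described here carry a LINC symbol, which is given to long intergenic noncoding RNA genes, and were expressed in PC-3 cells treated with SAM or PBS. They were chosen by name and by readout. A gene was taken when its symbol in the deposited count table was LINC followed by digits and its raw counts summed to 60 or more over the 6 libraries, and LINC00520 was left out. Of 897 LINC genes among the 57396 genes of the table, 422 had no count in any library and 338 had a summed count between 1 and 59. The remaining 137 without LINC00520 gave 136 members. PC-3 is an established line from a metastasis of a prostate carcinoma. The tested libraries came from PC-3 cells treated with 160 µM SAM (S-adenosylmethionine), and the control libraries came from PC-3 cells given PBS. Both treatments ran for 5 d, and each group held 3 libraries of this 1 line. Nothing says that the libraries of a group came from separate cultures, so the p-values measure the spread between libraries, which may be technical.

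SAM is the methyl donor of the cell, used for the methylation of DNA, RNA, histones and other proteins. Methylation of cytosines in CG pairs at a promoter is linked to a silent gene. LINC symbols are given to long noncoding RNA genes that lie between protein-coding genes and have no name from a known function. Some have since received such a name. LINC00657 is NORAD, which binds Pumilio proteins, and a few LINC transcripts were later found to encode micropeptides. DNA methylation was not measured in these libraries.

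To show how differently the promoters of changed members are built, those of the 2 lower members with the smallest p (LINC01547, LINC00662) and of the 2 higher members with a promoter entry (LINC00973, LINC00704) are given below. They were selected after their values were seen. Each runs from 250 bases before to 50 bases after the gene start in RefSeq (GRCh38.p14), 5′ to 3′ on the strand of the gene, with every CG in capitals. CG reads the same on both strands. The windows are chr21:44939864-44940163 (minus strand), chr19:27793891-27794190 (minus strand), chr3:98980805-98981104 (plus strand) and chr10:4678021-4678320 (minus strand).
LINC01547: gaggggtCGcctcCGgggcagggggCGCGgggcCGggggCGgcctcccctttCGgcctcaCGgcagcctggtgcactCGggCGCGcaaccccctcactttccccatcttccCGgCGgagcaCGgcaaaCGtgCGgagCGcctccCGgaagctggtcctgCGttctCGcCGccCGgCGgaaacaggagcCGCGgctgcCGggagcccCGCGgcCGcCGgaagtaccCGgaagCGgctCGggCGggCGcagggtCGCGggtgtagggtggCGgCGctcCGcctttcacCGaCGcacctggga
LINC00662: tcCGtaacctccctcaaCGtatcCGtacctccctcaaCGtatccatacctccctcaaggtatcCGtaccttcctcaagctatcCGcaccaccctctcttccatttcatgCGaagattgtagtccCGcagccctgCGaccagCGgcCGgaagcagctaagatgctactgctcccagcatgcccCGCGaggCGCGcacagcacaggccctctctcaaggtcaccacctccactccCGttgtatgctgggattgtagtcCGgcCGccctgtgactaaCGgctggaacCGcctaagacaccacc
LINC00973: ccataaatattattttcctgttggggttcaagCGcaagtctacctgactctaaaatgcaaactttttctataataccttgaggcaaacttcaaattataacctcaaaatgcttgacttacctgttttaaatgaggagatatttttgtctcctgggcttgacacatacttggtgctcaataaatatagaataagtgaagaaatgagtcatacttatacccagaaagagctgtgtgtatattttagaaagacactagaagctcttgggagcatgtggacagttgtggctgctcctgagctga
LINC00704: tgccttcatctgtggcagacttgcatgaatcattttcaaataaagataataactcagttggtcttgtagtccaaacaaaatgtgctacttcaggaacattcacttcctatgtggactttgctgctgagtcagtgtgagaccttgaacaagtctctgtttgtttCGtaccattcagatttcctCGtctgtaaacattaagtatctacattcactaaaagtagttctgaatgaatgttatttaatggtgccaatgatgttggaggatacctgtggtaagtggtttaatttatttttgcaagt
The LINC01547 promoter held 42 CG, and 5.85% of the 35116 RefSeq promoters held at least as many. Its window also holds the start of FAM207A, a protein-coding gene 97 bases away on the opposite strand. The LINC00662 promoter held 20 CG, a number reached by 41.2% of promoters. The LINC00973 promoter held 1 CG, and 11.0% of promoters held no more than that. The LINC00704 promoter held 2 CG, and 18.2% of promoters held no more. The other called members with a promoter entry were lower with SAM and also held few CG, with 4 for LINC00184, 3 for LINC01515 and 2 for LINC00284, so called lower members had both CG-rich and CG-poor windows. The RefSeq starts of LINC01515 and LINC00284 lie 1087 and 113666 bases from the starts in the table. These counts describe the letters of the reference and not their methylation.

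The libraries held 28995160, 12020601 and 15467639 gene counts in SAM 1 to 3, against 9379258, 21768273 and 19985193 in control 1 to 3. SAM 2 and control 1, the shallowest library of each group, deviated together from their group means (Pearson r = 0.45 across genes, which are not replicates). This was the largest correlation between any SAM and any control library. Deviations from a mean of 3 libraries sum to 0, so these correlations constrain each other and cannot show that the 2 libraries belong together. Counts below rest on all libraries unless a removal is named. A count of 3 corresponded to between 0.103 CPM in SAM 1 and 0.322 CPM in control 1, where CPM is the count scaled to a common library size (TMM). The epithelial markers KRT8, KRT18, KRT19 and EPCAM stood between 399 and 1307 CPM in every library, and KLK3 was at 0. VIM was lower than the other markers listed as high in PC-3 cells, at 9.22 to 15.0 CPM. The 7 markers of leukocytes, endothelium and fibroblasts summed to 17.7 to 18.1 CPM in SAM libraries, against 17.9 to 19.9 CPM in control libraries. Of that sum, COL1A1 made up 16.6 to 18.8 CPM and DCN was at 0.

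Every member had counts in every library. LINC genes of the list took 0.161, 0.153 and 0.132% of the counts in SAM 1 to 3, against 0.160, 0.159 and 0.158% in control 1 to 3. The 95% Wilson interval was 0.151 to 0.155% for SAM 2 and 0.130 to 0.134% for SAM 3, and the lowest bound of any control was 0.157%. These intervals cover counting error only. SAM 3 and SAM 2 lay under all controls, SAM 3 further than SAM 2, and SAM 1 was within counting error of the controls. LINC00657 alone held 47.9% of the members' counts, and the 10 members with most counts held 70.1%. Without LINC00657 the share was 0.0821, 0.0754 and 0.0782% with SAM, against 0.0806, 0.0825 and 0.0816% in controls, and SAM 2 was then the lowest. Most members were scarce. Their median level was 1.98 CPM, against 22.7 CPM over all tested genes, with 41 members under 1 CPM, 72 between 1 and 10 CPM and 23 at 10 CPM or more. At the lower edge of the rule, LINC00871 and LINC01269 had a summed count of 60 and LINC00959 had 61, while LINC00505 (58), LINC00634 (57) and LINC01094 (56) fell just outside.

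Members lay on 22 chromosomes, with 15 on chromosome 1, 13 on chromosome 2 and 10 on chromosome X. In GENCODE 44, 116 members were annotated as lncRNA genes, 9 as pseudogenes and 10 as protein-coding genes, and 1 identifier (that of LINC01059) was not matched. For 31 members GENCODE gives another name by now. The median member transcript had 1386 bases in the table, against 2234 bases over all tested genes.

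LINC00657 had the highest level per kb of exon, at 137 CPM per kb, averaged over all libraries. It was measured at 785, 791 and 550 CPM with SAM, against 797, 758 and 750 CPM in controls. SAM 3 was its low library and the other libraries lay close together. Its log2 fold change was -0.12 (SE 0.14, edgeR adjusted p = 0.584), and 0.04 without SAM 3. The next levels per kb were 46.3 for LINC00680, 38.0 for LINC00973, 37.9 for LINC00674 and 28.2 for LINC00888. LINC00680, LINC00674 and LINC00888 are annotated as transcribed pseudogenes, whose reads can be shared with related copies, and their exon models are short (181, 160 and 421 bases). These levels are therefore uncertain. LINC00493, LINC00857, LINC00998, LINC01468 and LINC01420 followed, between 26.9 and 13.8 CPM per kb. With the transcript length given in the table, 8 of these 10 members were again among the highest 10. Of the 10, LINC00973 alone passed the test of the SAM effect described below, beside 10.4% of all tested genes.

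**Figure D1:**
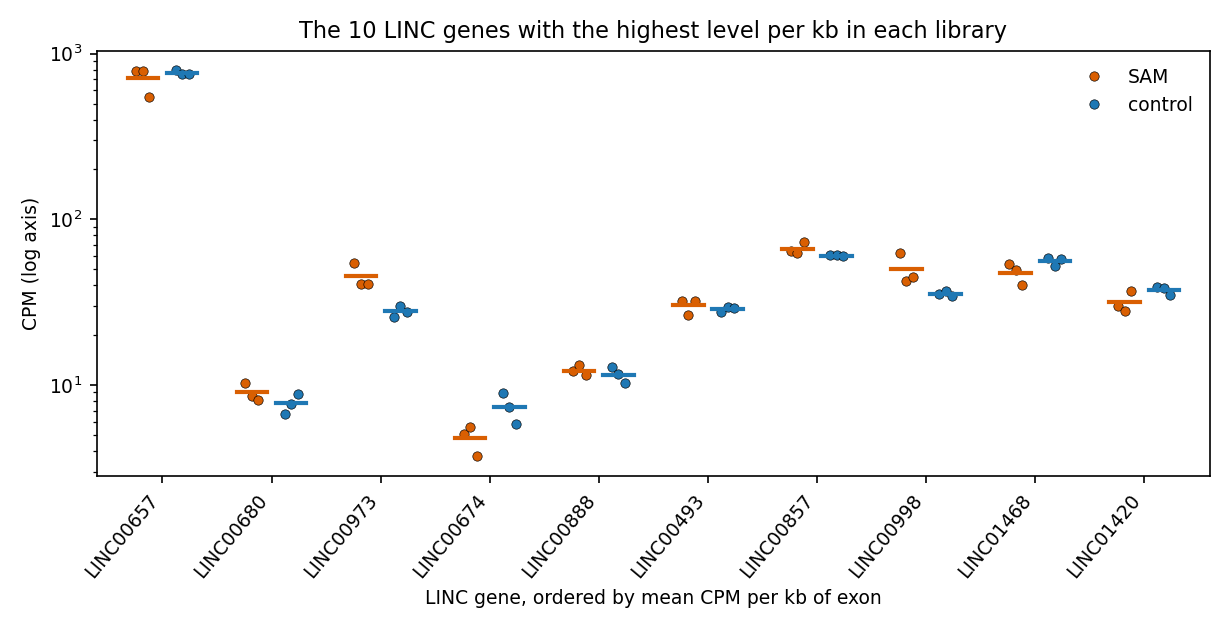
CPM (log axis) of the 10 LINC genes with the highest level per kb of exon, in the 3 SAM libraries (orange, left of each pair) and the 3 control libraries (blue, right). Points are libraries and bars are group means. LINC00657 stood far above the others in every library. The SAM and control points of LINC00973, LINC00998, LINC00857 and LINC00674 did not overlap, beside 36.7% of all tested genes without overlap.

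The comparison of SAM with control asked which genes change their RNA level under the methyl donor. Of the 136 members, 133 passed the filter on low counts and were tested among 15312 genes. A gene was called at an edgeR adjusted p (Benjamini-Hochberg over all tested genes) under 0.05. SAM libraries had higher LINC00973, LINC00052 and LINC00704, and lower LINC01547, LINC00662, LINC00284, LINC00184, LINC01139, LINC01376, LINC00649, LINC01515 and LINC01057. These were 12 of 133 members, or 9.02%, beside 10.4% of all tested genes called. Higher calls were 3 members (2.26%, beside 5.19% of all genes) and lower calls were 9 members (6.77%, beside 5.24%). The share of called members was near the background. At an unadjusted p under 0.05 there were 36 members (27.1%, beside 30.6% of all tested genes), of which 12 were higher (9.02%, beside 15.4%) and 24 lower (18.0%, beside 15.2%). The groups did not overlap for 41 tested members (30.8%, beside 36.7% of all tested genes), of which 14 were higher (10.5%, beside 17.9%) and 27 lower with SAM (20.3%, beside 18.8%). In RNA from whole cultures, fewer cells with a transcript and less transcript per cell cannot be told apart.

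The median log2 fold change of the tested members was -0.065, beside -0.0072 over all tested genes. The quartiles were -0.37 and 0.16 for members and -0.23 and 0.20 for all genes. Negative values were found for 79 members (59.4%, beside 50.9% of all tested genes) and positive ones for 54. Members were measured with less precision, with a median SE of 0.24 beside 0.13. The median coefficient of variation within a group was 19.3% with SAM and 15.0% in controls. By level, 2 of 38 tested members under 1 CPM, 3 of 28 between 1 and 2 CPM, 3 of 44 between 2 and 10 CPM and 4 of 23 at 10 CPM or more were called. From the lowest bin to the highest, this was 5.26, 10.7, 6.82 and 17.4% of members, beside 4.73, 5.55, 11.1 and 11.6% of all genes at those levels. Members were thus below the share of all genes between 2 and 10 CPM and above it in the other bins, each time on few calls. SAM 3 was the lowest library for 39 tested members, and control 1 was the highest for 35. SAM 3 also stood apart in a trend of counts on GC content (0.15 per 10 points on the log2 scale, against -0.05 to -0.01 in the other libraries). With the trends on GC content and length removed, an alternative chosen after seeing the data, 7 members were called higher and 12 lower, beside 17.1% of all tested genes.

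**Figure D2:**
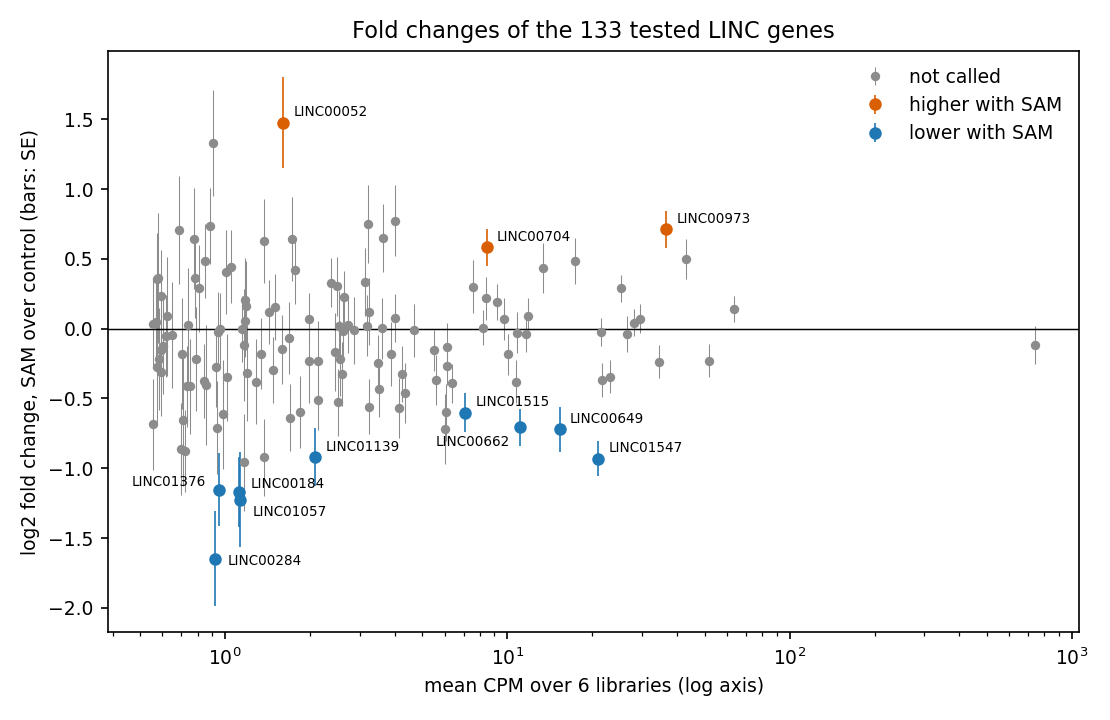
Log2 fold change (SAM over control) against mean CPM (log axis) for the 133 tested LINC genes, with bars of 1 SE. Called genes are coloured and named (orange higher with SAM, blue lower with SAM), and most of the 133 lie near 0 with wider bars at low CPM.

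LINC01547 (ENSG00000183250, chromosome 21, positions 44932814 to 44939913 in GRCh38, minus strand) gave the firmest difference among the members. It had 12.0, 15.8 and 15.6 CPM with SAM, against 28.0, 26.9 and 27.2 CPM in controls. Every SAM library lay well under every control library, and the controls were within a few percent of each other. The means were 14.5 ± 2.16 CPM with SAM and 27.4 ± 0.552 CPM in controls (SD, n = 3 each), a log2 fold change of -0.93 (SE 0.12, edgeR adjusted p = 0.00415). By p it ranked 82 among all tested genes, and it was the only member called at an edgeR adjusted p under 0.01. It remained called with any 1 library left out (edgeR adjusted p up to 0.0355) and in all 13 other fits.

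LINC00662 (ENSG00000261824, chromosome 19, positions 27684580 to 27793940) has been studied in prostate and other carcinomas. It had 8.27, 9.56 and 7.53 CPM with SAM, against 14.6, 13.0 and 13.8 CPM in controls. The groups were clearly apart, with a log2 fold change of -0.71 (SE 0.13, edgeR adjusted p = 0.014). LINC00649 (ENSG00000237945, chromosome 21, positions 33915534 to 33977691) had 10.9, 14.4 and 9.51 CPM with SAM, against 21.8, 18.1 and 17.3 CPM in controls. Its log2 fold change was -0.72 (SE 0.16, edgeR adjusted p = 0.025), with SAM 2 nearest to the controls. It overlaps 2 protein-coding genes. With the strand rule of the counting unknown, their reads cannot be told apart. LINC01515 (ENSG00000228065, chromosome 10, positions 65570338 to 65768835) had 5.62, 6.34 and 5.02 CPM with SAM, against 8.26, 8.95 and 8.37 CPM in controls. The difference was small and even across libraries (log2 fold change -0.60, SE 0.14, edgeR adjusted p = 0.029).

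The other lower members were close to the limit of these libraries. LINC01139 (ENSG00000215808, chromosome 1, positions 238480384 to 238486023), also called LINK-A and known from kinase signalling in breast cancer cells, had 1.31, 1.78 and 1.32 CPM with SAM, against 2.47, 2.72 and 2.89 CPM in controls. Its log2 fold change was -0.92 (SE 0.21, edgeR adjusted p = 0.025). LINC00284 (ENSG00000233725, chromosome 13, positions 43908669 to 44030461) is now named NRAD1, a noncoding RNA of the aldehyde dehydrogenase 1A pathway in breast cancer cells. It had 0.344, 0.761 and 0.330 CPM with SAM, against 1.29, 1.59 and 1.22 CPM in controls. SAM 2 was the highest of the SAM libraries and still under every control. With a log2 fold change of -1.65 (SE 0.34, edgeR adjusted p = 0.019) it had the steepest fall of the called members.

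LINC00184 (ENSG00000224939, chromosome 1, positions 234629311 to 234634780) had 0.689, 0.677 and 0.660 CPM with SAM, against 1.72, 1.68 and 1.27 CPM in controls. The SAM libraries were nearly equal in CPM, though on only 20, 8 and 10 counts. The log2 fold change was -1.17 (SE 0.25, edgeR adjusted p = 0.022). LINC01376 (ENSG00000236204, chromosome 2, positions 18986451 to 19346748) had 0.655, 0.507 and 0.528 CPM with SAM, against 1.50, 1.23 and 1.27 CPM in controls (log2 fold change -1.15, SE 0.26, edgeR adjusted p = 0.025). Its groups did not overlap, on 19, 6 and 8 counts with SAM, against 14, 27 and 26 in controls. LINC01057 (ENSG00000224081, chromosome 1, positions 94638461 to 94820281), named SLC44A3-AS1 in GENCODE 44 and annotated as a transcribed pseudogene, had 0.930, 0.507 and 0.396 CPM with SAM, against 2.15, 1.50 and 1.32 CPM in controls. It was just past the threshold (log2 fold change -1.23, SE 0.34, edgeR adjusted p = 0.049) and was not called with any 1 library left out.

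Of the higher members, LINC00973 (ENSG00000240476, chromosome 3, positions 98981058 to 98983096) was the most abundant. It had 54.8, 40.7 and 40.7 CPM with SAM, against 25.7, 29.9 and 27.7 CPM in controls. SAM 1 stood above the other SAM libraries, and all of them exceeded the controls (log2 fold change 0.71, SE 0.13, edgeR adjusted p = 0.013). LINC00704 (ENSG00000231298, chromosome 10, positions 4650185 to 4678154), named MANCR for its link to mitosis, had 9.51, 10.5 and 10.6 CPM with SAM, against 6.01, 7.17 and 6.95 CPM in controls. Its libraries were close within each group (log2 fold change 0.58, SE 0.13, edgeR adjusted p = 0.027). LINC00052 (ENSG00000259527, chromosome 15, positions 87576929 to 87579866) had 3.20, 2.28 and 1.72 CPM with SAM, against 0.429, 1.04 and 0.979 CPM in controls. It had the steepest rise of the called members (log2 fold change 1.48, SE 0.33, edgeR adjusted p = 0.023), with SAM 1 high and control 1 low.

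Of the 12 called members, 5 differed by at least 2-fold, with LINC00052 higher and LINC00284, LINC00184, LINC01376 and LINC01057 lower. All 5 had under 2 CPM on average. The calls depended on the set of libraries. LINC01547 alone was still called without SAM 1 and without each of the controls, while all tested genes then gave 0.909 to 1.61% called. Without SAM 2 there were 20 called members and without SAM 3 there were 19, beside 20.3% and 15.7% of all tested genes. With SAM 2 and control 1 left out, 2 higher and 5 lower members were called, beside 6.03% of all tested genes, and LINC00184, LINC00052, LINC01376, LINC00704, LINC01515 and LINC01057 lost their calls. LINC00284, LINC01139 and LINC01515 were not called after all libraries were thinned to the depth of control 1, and DESeq2 did not call LINC00184, LINC01139 and LINC01057. No called member changed its direction in any of these fits.

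**Figure D3:**
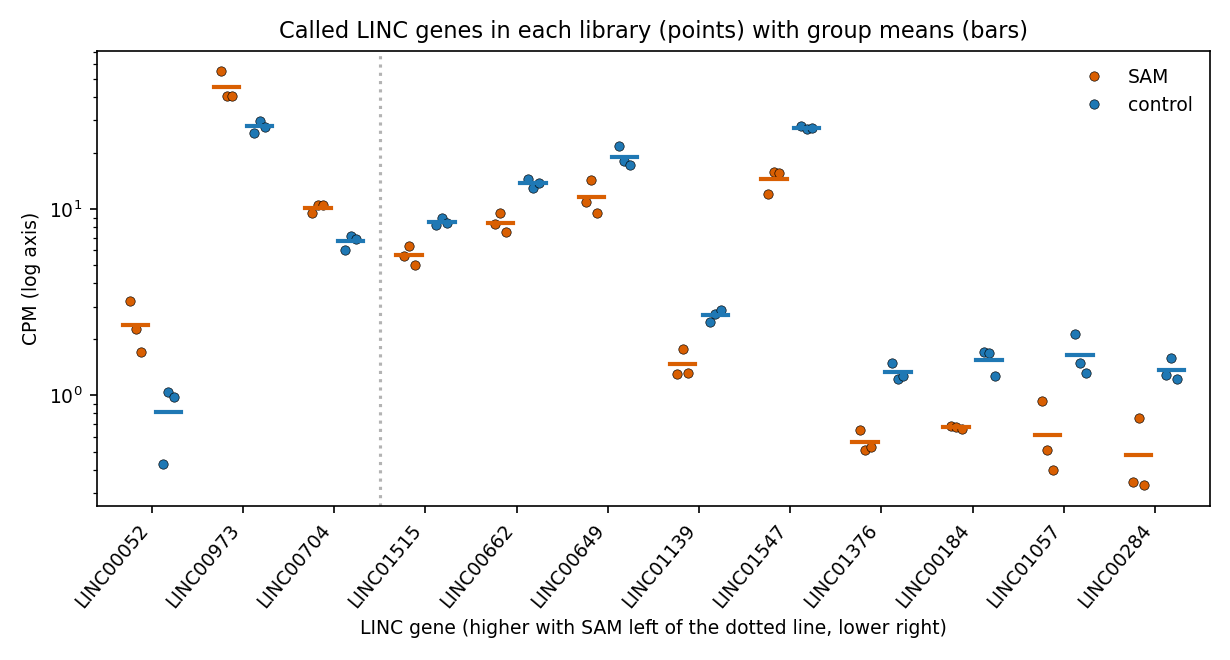
CPM (log axis) of the 12 called LINC genes in the 3 SAM libraries (orange, left of each pair) and the 3 control libraries (blue, right), ordered by log2 fold change. Points are libraries and bars are group means. In all 12 genes the SAM and control points do not overlap, beside 36.7% of all tested genes. The 12 were chosen by the test on these same libraries, so this gives no separate support. Of the 12, 5 averaged under 2 CPM.

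**Figure D4:**
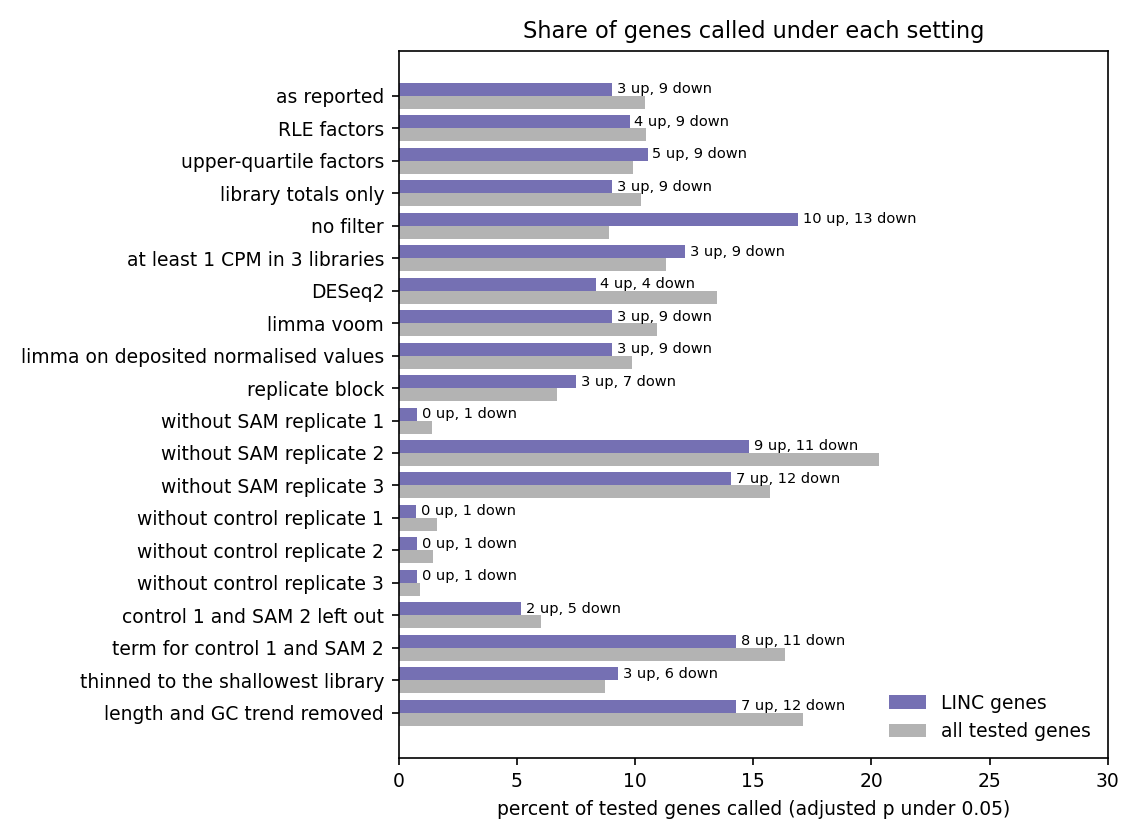
Percent of tested genes called under each setting, for the LINC genes (violet) and for all tested genes (grey), with the number of LINC genes called higher and lower with SAM beside each bar. The shares of LINC genes and of all genes were small when SAM 1 or a control library was left out and larger without SAM 2 or SAM 3, and with no filter the LINC genes reached 10 higher and 13 lower.

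Just outside the threshold lay LINC00998, LINC01204 and LINC00886. LINC00998, now SMIM30, encodes a small membrane protein of the endoplasmic reticulum, and had 62.7, 42.5 and 45.0 CPM with SAM, against 35.5, 37.1 and 34.3 CPM in controls. The groups did not overlap (log2 fold change 0.50, SE 0.14, edgeR adjusted p = 0.0513). LINC01204 had 1.86, 1.02 and 0.858 CPM with SAM, against 0.751, 0.454 and 0.490 CPM in controls (log2 fold change 1.33, SE 0.38, edgeR adjusted p = 0.052). LINC00886 had 0.758, 1.18 and 0.924 CPM with SAM, against 2.25, 1.73 and 1.42 CPM in controls (log2 fold change -0.92, SE 0.27, edgeR adjusted p = 0.059). Both had all SAM libraries on one side of all controls. The 3 members that were not tested had few counts. LINC00431 had 14, 5 and 11 counts with SAM, against 4, 19 and 11 in controls. LINC00871 had 30, 5 and 8 counts with SAM, against 4, 6 and 7 in controls. LINC00667 had 31, 7 and 6 counts with SAM, against 1, 9 and 9 in controls.

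The members known to encode micropeptides were measured at moderate levels (median log2 fold change 0.073). None of the 5 was called in edgeR, beside 10.4% of all tested genes. At an unadjusted p under 0.05 there were 2 (beside 30.6% of all tested genes), limma voom called none, and DESeq2 called LINC00998. Besides LINC00998, these were LINC00493 (SMIM26) and LINC00116 (MTLN), both encoding mitochondrial proteins, LINC01420 (NBDY), encoding a microprotein of the mRNA decapping machinery, and LINC00467. LINC00493 had 31.9, 26.6 and 32.3 CPM with SAM, against 27.7, 29.7 and 29.0 CPM in controls. Its groups overlapped (log2 fold change 0.07, SE 0.10). LINC00116 had 16.1, 11.8 and 18.4 CPM with SAM, against 9.44, 13.2 and 11.3 CPM in controls, also with overlap (log2 fold change 0.44, SE 0.18, edgeR adjusted p = 0.133). LINC01420 had 29.9, 28.0 and 37.1 CPM with SAM, against 39.2, 38.3 and 34.7 CPM in controls (log2 fold change -0.24, SE 0.12, edgeR adjusted p = 0.201). LINC00467 had a log2 fold change of 0.07 (SE 0.15).

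Of 5 members on a list of LINC genes studied in prostate cancer, LINC00662 was called lower and the other 4 were not called (beside 10.4% of all tested genes called). All 5 log2 fold changes were negative, with a median of -0.39, beside 59.4% negative values over the tested members and 50.9% over all tested genes. LINC00963 had 16.6, 18.2 and 22.0 CPM with SAM, against 23.5, 25.1 and 24.3 CPM in controls, without overlap (log2 fold change -0.37, SE 0.12, edgeR adjusted p = 0.076). LINC00920 had 5.68, 5.07 and 5.74 CPM with SAM, against 6.97, 7.90 and 6.81 CPM in controls, again without overlap (log2 fold change -0.39, SE 0.14, edgeR adjusted p = 0.101). LINC00261 and LINC01296 gave -0.43 (SE 0.20) and -0.18 (SE 0.15) on the log2 scale, with overlapping groups. LINC01296 is annotated as a pseudogene and may share reads with its copies.

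Of 4 members known for a regulator or a regulatory role, LINC00704 was called higher (beside 10.4% of all tested genes called). LINC01503, linked to TP63 in squamous carcinoma, had 1.65 to 3.30 CPM with SAM, against a lowest control of 2.30 CPM, so the groups overlapped (log2 fold change -0.22, SE 0.27). LINC00152, or CYTOR, had 23.1, 15.2 and 22.6 CPM with SAM, against 13.4, 16.4 and 13.8 CPM in controls (log2 fold change 0.49, SE 0.17, edgeR adjusted p = 0.085). SAM 2 lay among the controls. LINC00152 has a near-identical copy elsewhere in the genome, so its level is uncertain.

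Of 10 members studied as pro-growth transcripts in carcinomas, 9 were tested and none was called in edgeR or limma voom. DESeq2 gave an adjusted p for 8 of these members and called none. The median log2 fold change was 0.049, with 7 positive values, beside 50.9% negative values over all tested genes. At an unadjusted p under 0.05 edgeR gave 4. Over all tested genes edgeR called 10.4%, and 30.6% had an unadjusted p under 0.05. LINC00857, the second most abundant member by CPM, had 64.2, 62.7 and 72.9 CPM with SAM, against 60.6, 60.8 and 59.6 CPM in controls. The values did not overlap but were close (log2 fold change 0.14, SE 0.09, edgeR adjusted p = 0.321). LINC00839 had 28.2, 25.7 and 29.5 CPM with SAM, against 24.2, 22.8 and 21.5 CPM in controls (log2 fold change 0.29, SE 0.10, edgeR adjusted p = 0.086). LINC00511 had 17.9, 20.0 and 23.3 CPM with SAM, against 24.9, 27.7 and 24.5 CPM in controls (log2 fold change -0.34, SE 0.12, edgeR adjusted p = 0.090). LINC01234 had overlapping groups and a log2 fold change of 0.65 (SE 0.24). LINC00941, LINC01116, LINC00460 and LINC00346 lay between -0.18 and 0.05, and LINC00667 was not tested.

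Other kinds of long noncoding RNA were set beside the members with the same fit. Of 305 tested antisense RNA genes, 6 were called higher and 18 lower (7.87%, median log2 fold change -0.13). Of 18 tested small nucleolar RNA host genes, 2 were called, both higher (SNHG12 and SNHG6), and of 14 microRNA host genes 1 was called lower (MIR205HG). Of 27 long noncoding RNAs with names of their own, DANCR and PVT1 were called higher and ZFAS1 lower. Over the 1218 tested GENCODE lncRNA genes outside the members, 6.98% were called, with 37 higher and 48 lower. Over 12795 protein-coding genes, 11.1% were called. The members' 9.02% lay between these shares, and the difference was not tested. The 114 tested members annotated as lncRNA genes had a median log2 fold change of -0.049 with 11 called. The 10 annotated as protein-coding had -0.074 with none called in edgeR, beside 10.4% of all tested genes. Of these 10, 3 had an unadjusted p under 0.05, beside 30.6% of all tested genes. DESeq2 gave an adjusted p for 7 of the 10 and called LINC00998.

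LINC symbols are meant for genes that lie between protein-coding genes, although 16 members overlapped one. Each member was therefore set beside its nearest protein-coding gene within 100000 bases. Such a neighbour was found for 110 members and not for 26. For 92 members both genes were tested, and their log2 fold changes were nearly unrelated across pairs (Pearson r = -0.10, Spearman rho = -0.12, with 48 pairs of the same sign). The pairs share all libraries, and 16 of them overlap in position. In those 16 pairs r was -0.49 and rho was -0.34, and in the 76 pairs that do not overlap r was -0.06. Of the 12 called members, 7 had a tested neighbour, and none of these neighbours was called in edgeR, DESeq2 or limma voom, with 1 at an unadjusted p under 0.05. Over all tested genes edgeR called 10.4%, and 30.6% had an unadjusted p under 0.05, so 7 neighbours are too few to be set apart from that share. For 2 of the 7 the neighbour had the same sign. LINC00662, LINC00052, LINC01139, LINC00704 and LINC01515 had no protein-coding gene within this distance.

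Of the called members, 3 start within 1000 bases of a protein-coding gene that runs on the opposite strand. LINC01547 starts 97 bases from FAM207A, which had 46.8, 43.7 and 54.0 CPM with SAM, against 37.4, 43.2 and 42.2 CPM in controls (log2 fold change 0.23, SE 0.10, edgeR adjusted p = 0.168). The log2 ratio of LINC01547 to FAM207A was -1.96, -1.47 and -1.79 with SAM, against -0.42, -0.68 and -0.63 in controls. Every SAM library thus held less LINC01547 per FAM207A than any control. LINC01057 starts 61 bases from SLC44A3, with a log2 fold change of 0.14 (SE 0.10, edgeR adjusted p = 0.382). LINC00649 starts 446 bases from ATP5O, which encodes a subunit of the mitochondrial ATP synthase, with 0.20 (SE 0.13, edgeR adjusted p = 0.320). In each of the 3 pairs the LINC gene was called lower while the coding gene had a positive value short of the threshold. Over all 17 tested pairs of this kind, 6 had the same sign (r = -0.20, rho = -0.21). LINC01125 had -0.69 without a call while its partner ACTR1B, an actin-related protein of the dynactin complex, was called lower (log2 fold change -0.43, edgeR adjusted p = 0.0376). The remaining called members with a neighbour were LINC00973 (DCBLD2, 79369 bases away, log2 fold change -0.28), LINC00284 (LACC1, -0.14), LINC00184 (IRF2BP2, -0.10) and LINC01376 (OSR1, 0.37), and none of these neighbours was called.

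Among the members themselves, 5 pairs lie within 100000 bases of each other. No member of these pairs was called in edgeR or limma voom (1 at an unadjusted p under 0.05 in edgeR). DESeq2 gave an adjusted p for 8 of the 10 paired members and called none. Over all tested genes edgeR called 10.4%, and 30.6% had an unadjusted p under 0.05. LINC01443 and LINC01444 on chromosome 18 had log2 fold changes of 0.41 and 0.23, and LINC01270 and LINC01271 on chromosome 20 had 0.30 and 0.05. LINC00882 and LINC00883, 51 bases apart on chromosome 3, had 0.09 and -0.38. The signs were thus the same in some pairs and not in others.

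A RefSeq promoter was matched to 101 members, with a median of 14 CG in the window, the same as over all promoters. For 85 tested members the RefSeq start lay within 1000 bases of the start in the table, and their median was 18 CG. The 43 members with at least that number had a median log2 fold change of -0.15 and 2 calls (both lower, LINC01547 and LINC00662). The 42 members with fewer had a median of 0.038 and 3 calls (LINC00973 and LINC00704 higher, LINC00184 lower). LINC01515 (3 CG) and LINC00284 (2 CG), both called lower, are outside the 85 because their RefSeq starts lie further away. Over all tested genes the median was -0.0072 and 10.4% were called, but those genes were not split by CG. The promoters printed above, selected after their values were seen, fall in the first group for LINC01547 and LINC00662. Those for LINC00973 and LINC00704 fall in the second. These are descriptions over genes, with no test.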

How the data were processed

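RNA of PC-3 cells, 3 libraries with SAM and 3 with PBS, was isolated with a Peq-Gold kit and sequenced from TruSeq libraries on a HiSeq2000 per the labels. The study's text gives another dose, kit and sequencer and a vehicle of sulfuric acid and ethanol in PBS, and the labels were followed. The authors deposited raw read counts per Ensembl gene and a normalised signal, in which each library's counts were divided by its size factor. The submitters' processing notes name STAR 2.4, HTSeq 0.6.1, SAMtools 0.1.19, DESeq2 1.8, CASAVA 1.8.2 and FastQC 0.10.0, and the builds hg19 and mm10. Of 51488 identifiers shared with GENCODE 44, 99.9% overlap that gene on GRCh38, so the table's coordinates are GRCh38, although counts may rest on another annotation. For strand use in counting, nothing was found in the sources used here. The deposited other columns (transcript length, position) were used as annotation.

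Counts were tested with edgeR 4.0.16 (R 4.3.3), glmQLFit and glmQLFTest, two-sided, after filterByExpr (15312 genes, 99.9% of counts) and TMM. The biological coefficient of variation was 13.5%. SE was taken from the log2 fold change and the F statistic. Levels are CPM, given per library or as mean ± SD. Alternatives were RLE, upper-quartile and total scaling, no filter, a filter of 1 CPM in 3 libraries, DESeq2 1.42.0, limma 3.58.1 (voom, and log2 of the deposited normalised signal plus 1), the replicate block, each library left out, SAM 2 and control 1 left out or given a term, thinning to 9379258 counts, other summed counts and an adjusted p of 0.01. Removal of length and GC trends, and levels per kb by the table's transcript length, were chosen after seeing the data. GC was known for 97.2% of tested genes.

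The members, lists and tests were chosen with earlier results of these data known. Named genes are all called members, the 10 highest per kb, members of the role lists, the 3 on each side of the count limit, the 3 uncalled with the smallest p, neighbours of called members, and up to 3 called examples of each other class. Genes named beyond this rule (member pairs, LINC01125 and ACTR1B, LINC00431) were chosen after their values were seen. One gene of the marker list is not reported here. Figures were drawn with matplotlib 3.10.9.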

Additional observations from a re-analysis of the deposited data

How the results depend on the processing

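The count of members called higher, 3 as reported, was 5 with upper-quartile factors, 10 with no filter, 8 with a term for control 1 and SAM 2, 7 with length and GC trends removed (chosen after seeing the data) and 0 at an adjusted p of 0.01. The count called lower, 9 as reported, was 4 with DESeq2, 5 with control 1 and SAM 2 left out, 5 at a summed count of 120 or more and 1 at an adjusted p of 0.01. DESeq2 gave no adjusted p for 2 of the 12 called members and called 7 of the rest. With 1 library left out, 0 to 9 members were called higher and 1 to 12 lower, beside 0.909 to 20.3% of all tested genes called. That share, 10.4% as reported, was 9.93% with upper-quartile factors, 8.88% with no filter and 16.3% with the term for control 1 and SAM 2. It was 17.1% with the trends removed, 13.4% with DESeq2, 6.03% with control 1 and SAM 2 left out and 1.65% at an adjusted p of 0.01. The median log2 fold change, -0.065 as reported, was -0.10 with library totals only, -0.033 with DESeq2, -0.11 with limma voom, -0.11 with control 1 and SAM 2 left out, -0.10 after thinning, -0.12 at a summed count of 30 or more and -0.038 at 120 or more. It lay between -0.11 and -0.047 with 1 library left out. The cause of these shifts was not tested, apart from the change in members that the summed counts make. With library totals only, all tested genes split into 608 higher and 961 lower calls, against 795 and 803 with TMM. Among values of named genes under all alternatives, 36 gained a call, 71 lost one and none changed sign while called.

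The labels do not say whether equal replicate numbers mark a pair. Deviations from a group mean of 3 libraries sum to 0, so their correlations cannot decide it. Same-numbered libraries had deviations correlated at -0.17, -0.40 and 0.13, and not every library correlated best with its own number. With the replicate block 3 members were called higher and 7 lower (LINC01139 and LINC01515 lost their calls), and all tested genes gave 440 higher and 588 lower calls.

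Low levels limit the rest. All 136 members had at least 10 counts in SAM 1, the deepest library, against 96 in control 1, the shallowest.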
